A study of Mus musculus with 36 samples.

Results

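The comparison described here is BtdCPU added to thapsigargin (Tg) in mouse embryonic fibroblasts without the kinase PERK. It sets the 3 libraries of PERK -/- cells that received BtdCPU + Tg against the 3 libraries of PERK -/- cells that received Tg, 6 of the 36 libraries of the series, chosen by their genotype and treatment labels and read across all genes. PERK -/- cells are called Perk-null below. The whole series holds 12 groups of 3 libraries, from PERK WT and PERK -/- cells under DMSO (the solvent), Tg, BtdCPU, halofuginone, BtdCPU + Tg and halofuginone with Tg. The groups compared here share the loss of PERK and the treatment with Tg, so that they differ by BtdCPU. Used beside them are Perk-null cells under DMSO, BtdCPU or halofuginone with Tg and WT cells under DMSO, Tg or BtdCPU + Tg. The labels give no dose, duration, batch or age of the embryos, and they do not say how the allele was made, whether the cells are 1 line or clone, or whether replicates were separate cultures. The p-values therefore measure the spread between these samples, which may be technical.

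PERK sits in the membrane of the endoplasmic reticulum (ER) and phosphorylates the translation factor eIF2 alpha when unfolded protein builds up. Phosphorylated eIF2 alpha slows most translation but favours that of ATF4, which with partners of the C/EBP and ATF families raises genes of amino acid uptake and synthesis, tRNA charging and stress feedback. This is the integrated stress response (ISR), and the kinases HRI, PKR and GCN2 can start it as well. Thapsigargin empties the calcium store of the ER by inhibiting the pump SERCA, and BtdCPU is a diarylurea that activates HRI. As the title of the series has it, the question is what switching on a second eIF2 alpha kinase does in cells that lack the one for ER stress.

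The 6 libraries held 35253928 to 36782709 counts. On the first principal component of their log2 values, which held 59.4% of the variance, the groups lay on opposite sides. The second component, with 12.7%, set the third library of each group at -28.9 and -26.6 against 11.2 to 17.0 for the others, so counts that move by over 1.5 times without replicate 3 of both groups are given both ways. Eif2ak3, the gene of PERK, stood at 26.0, 25.0 and 31.2 CPM, counts scaled to a common library size, with Tg and at 20.8, 17.8 and 23.7 CPM with BtdCPU + Tg, against 79.1, 78.1 and 104 CPM in WT cells under Tg, so the transcript was reduced in Perk-null cells but still read. Fibroblast transcripts such as Col1a1, Vim and Fn1 were abundant in all 6 libraries, although Lum had 10 counts or fewer. Several defining markers of other cell types (Epcam, Cldn3, Tie1, Cldn5, Cd3e, Olig2, Myod1, Myog) had 0 counts in all 6, while others were read at low counts: Krt8 and Krt18 8 to 38, Cdh1 9 to 15, Pecam1 9 to 16, Des 10 to 23, Ptprc up to 6 and Cd68 67 to 137. Csf1r, a receptor of myeloid cells, had 332 to 708 counts, and Kdr, a receptor of endothelial cells, had 3, 12 and 7 counts with Tg and 52, 40 and 33 with BtdCPU + Tg. The neural markers Nes and Tubb3 were not low, at 1909 to 4255 and 1575 to 3578 counts, and both fell (-0.87 and -0.86). Krt19 of the epithelial list had 3, 4 and 9 counts with Tg and 0 with BtdCPU + Tg. The part of such transcripts in the results was not tested.

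With BtdCPU added, transcripts of the ISR rose together with mitochondrial ribosomal RNA and the genes of ribosome assembly, while sterol synthesis genes and the messengers encoded by mitochondrial DNA fell. Of 16065 genes tested, 5723 changed, 35.6% of all (edgeR quasi-likelihood test, Benjamini-Hochberg adjusted p under 0.05). Of these, 2783 were higher (17.3%) and 2940 lower (18.3%), and 653 and 836 of them changed at least 2-fold. The median log2 fold change of all tested genes was -0.04. The CPM of the 3 and 3 libraries did not overlap for 8495 genes, 52.9%. Without replicate 3 of both groups 3722 of 16420 genes passed, 1917 higher (11.7%) and 1805 lower (11.0%), and counts given below for that fit are to be read against those shares. Counts of members for this comparison with no library left out are to be read against 17.3% and 18.3%. With 1 library left out, 14.7% to 16.7% of genes were higher and 12.3% to 15.1% lower. Counts for other comparisons are to be read against the shares given where each is introduced. In bulk RNA, fewer cells with a transcript and less of it per cell cannot be told apart.

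**Figure D1:**
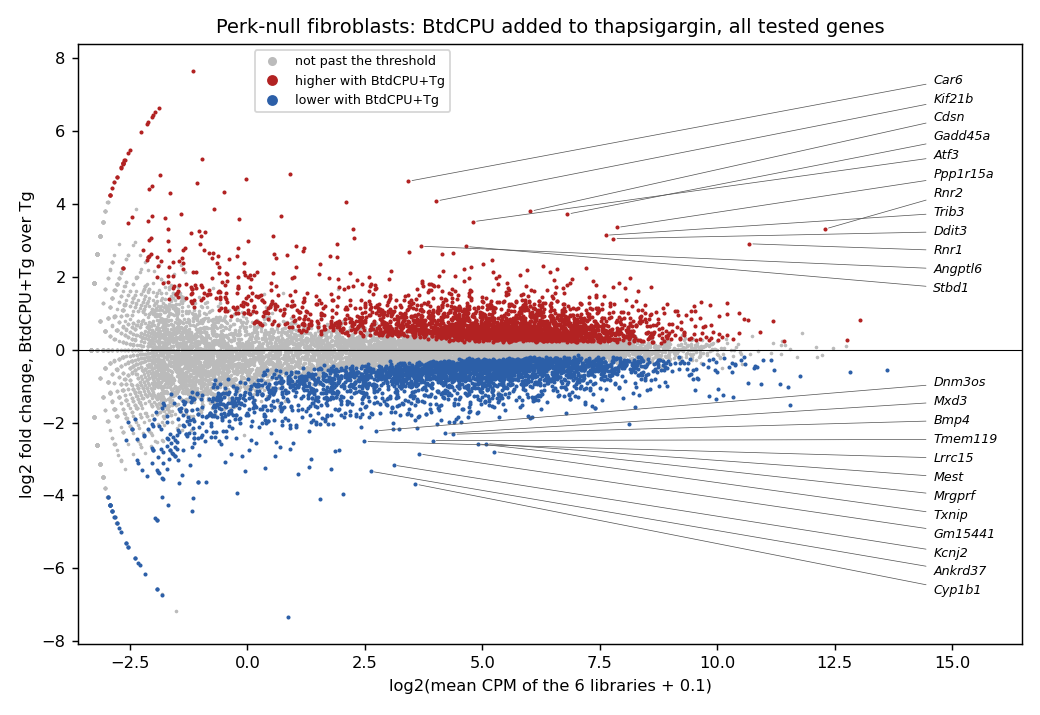
Log2 fold change of each of the 16065 tested genes with BtdCPU + Tg over Tg in Perk-null cells (vertical axis) against its mean level in the 6 libraries on a log2 scale (horizontal axis). Red points passed the threshold as higher (2783), blue points as lower (2940), and the 12 largest rises and 12 largest falls among well-measured genes are named.

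Of the 12 largest rises among genes with at least 5 CPM on average, 5 were stress response genes of the lists (Gadd45a, Atf3, Ppp1r15a, Trib3 and Ddit3). Gadd45a, a growth arrest gene induced by stress, read 14.5, 18.6 and 14.4 CPM with Tg and 209, 210.4 and 207 CPM with BtdCPU + Tg, a log2 fold change of 3.72, SE 0.24, edgeR adjusted p 3.8e-13. The 3 libraries with BtdCPU were nearly level and lay far above every Tg library. Ppp1r15a, which encodes the GADD34 subunit that directs a phosphatase back to eIF2 alpha, read 43.1, 42.7 and 39.1 CPM and then 417, 406 and 456 CPM (log2 fold change 3.35, SE 0.23, edgeR adjusted p 2.71e-12). Beside them rose Car6, a secreted carbonic anhydrase (4.62), the kinesin Kif21b (4.08), Cdsn, which encodes corneodesmosin (3.80), the angiopoietin-like gene Angptl6 (2.84) and Stbd1, which binds glycogen (2.83). Car6 went from 0.488, 1.15 and 0.854 to 16.1, 15.2 and 30.2 CPM, highest in the third library, and its log2 fold change was 4.26 without replicate 3 of both groups. Kif21b and Cdsn were likewise highest in the third library, at 41.4 and 175 CPM. Gadd45a and Angptl6 each overlap another gene in the RefSeq annotation, so their counts can hold reads of that neighbour.

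The transcription factors of the ISR rose when BtdCPU was present with Tg. Atf4, the central activator, read 725, 781 and 656 CPM with Tg and 1320.0, 1456 and 1335 CPM with BtdCPU + Tg (log2 fold change 0.93, SE 0.11, edgeR adjusted p 5.31e-08). Ddit3, which encodes CHOP, read 47.4, 60.3 and 35.8 and then 374, 413 and 399.8 CPM (3.05, SE 0.22, edgeR adjusted p 7.43e-12), and the lowest library with BtdCPU lay above the highest Tg library by a wide margin. Its locus overlaps those of Mars and Mbd6. Trib3, a pseudokinase that restrains ATF4 and CHOP, read 42.0, 48.5 and 30.4 and then 344, 349 and 374 CPM (3.14, SE 0.28, edgeR adjusted p 5.02e-10). Atf3, a repressor and partner of the family, read 3.90, 4.96 and 4.57 and then 48.8, 49.3 and 55.3 CPM (3.51, SE 0.22, edgeR adjusted p 1.61e-13). Of the 13 ISR transcription and feedback genes, 10 rose and 2 fell, with a median log2 fold change of 0.99. Nfil3 (1.84), Cebpg (1.21), Nupr1 (1.19), Jdp2 (0.99), Cebpb (0.82) and Atf5 (0.47) were the other rises. The relatives of Trib3 went the other way: Trib2 fell by 1.85 and Trib1 by 0.57 on the log2 scale, and 1 of the 2 falls passed without replicate 2 of BtdCPU + Tg. Without replicate 3 of both groups 9 of the 13 rose and 2 fell.

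The eIF2 alpha kinases themselves did not rise. Eif2ak1, the gene of HRI, read 43.2, 37.7 and 44.2 CPM with Tg and 37.1, 38.3 and 41.6 CPM with BtdCPU + Tg, overlapping ranges (log2 fold change -0.10, SE 0.09, edgeR adjusted p 0.448). Eif2ak3 changed by -0.40, SE 0.18, edgeR adjusted p 0.0821, short of the threshold although the groups did not overlap. Eif2ak2, the gene of PKR, fell by 0.67 and Eif2ak4, the gene of GCN2, was at -0.05, not passing. Among 10 genes of eIF2, its exchange factor eIF2B and its phosphatases, 5 rose and none fell: Ppp1r15a, Eif2b3 (1.26), Eif2s2 (0.85), Eif2s1 (0.77) and Eif2b5 (0.27).

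**Figure D2:**
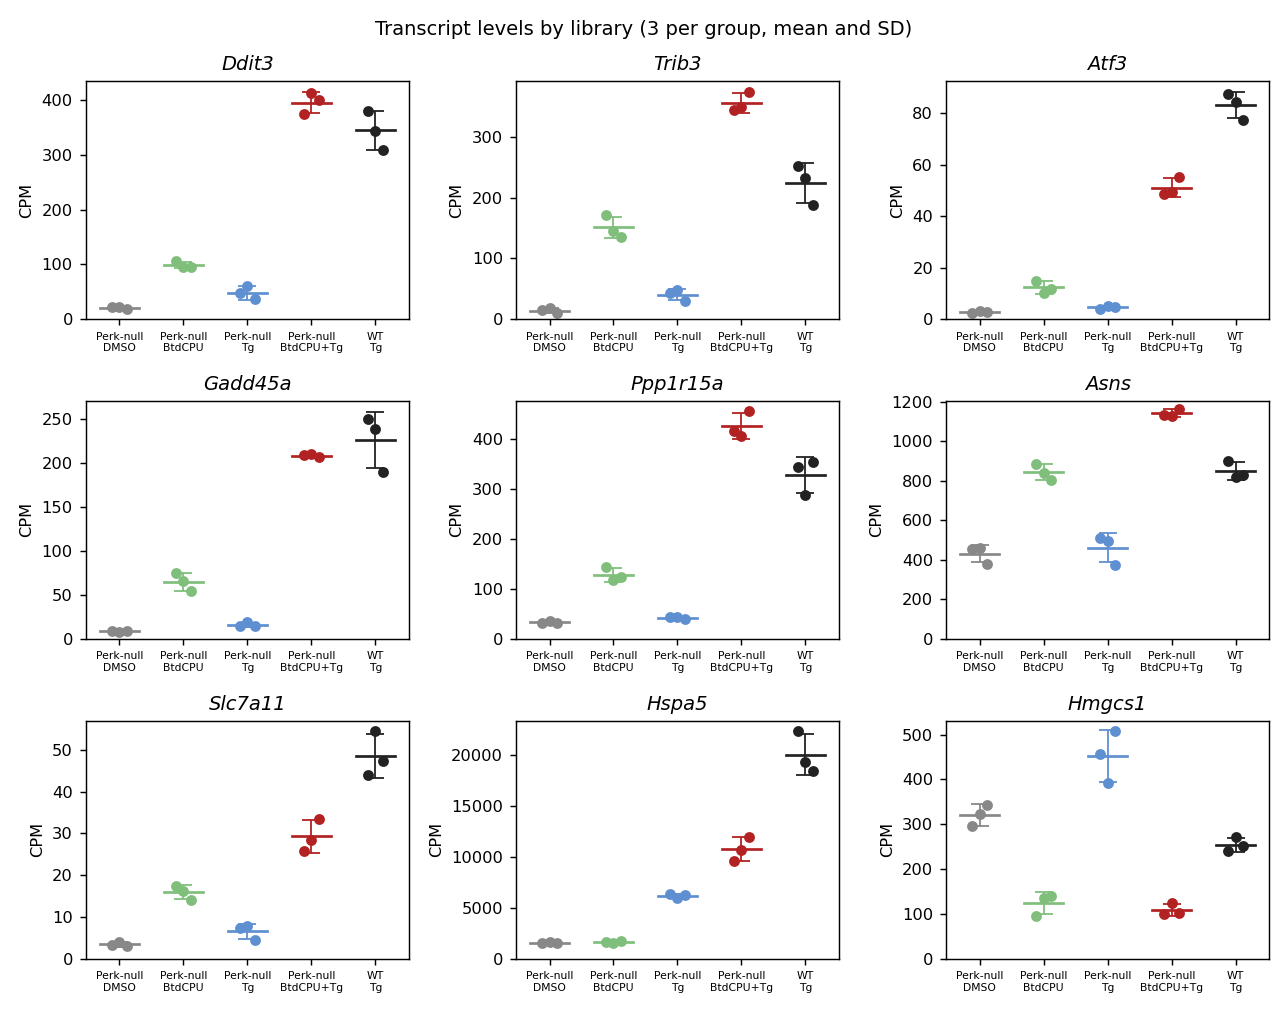
CPM of 9 genes in each library of 5 groups (points), with the group mean and SD over 3 libraries (bars). For Ddit3, Trib3, Ppp1r15a and Asns the libraries with BtdCPU + Tg lie above those of Perk-null cells under Tg, DMSO or BtdCPU, and Hmgcs1 lies lower with BtdCPU whether or not Tg was present.

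ATF4 and its partners bind a composite C/EBP-ATF element. The start regions of genes that moved together were therefore searched for TGATGNAA on both strands, in the 250 bases before and 50 after each RefSeq start (GRCm38.p6, a build other than the GRCm39 that the submitters' processing notes name). These letters were found in 3.97% of all promoters and in 2.61% of the promoters of tested genes, or for 4.51% of all genes and 3.10% of tested genes with a promoter in the table. They were found for 4 of the 12 ISR transcription genes that had a promoter in the table, 5 of 13 cytosolic tRNA synthetases, 3 of 11 genes of asparagine, proline and transamination, 2 of 13 amino acid transporters and 0 of 10 serine and one-carbon genes. A match is a description of the letters and not a binding site. The windows below, all from before the start, are shown because they hold the letters at genes that rose here, 3 of them synthetases, with the match in capitals. They lie at chr1:191183406-191183473 (minus strand) for Atf3, chr2:119351019-119351086 (plus) for Chac1, chr6:7693210-7693262 (minus) for Asns, chr3:50443642-50443709 (minus) for Slc7a11, chr8:111033700-111033767 (plus) for Aars, chr6:55037941-55038000 (plus) for Gars and chr15:11399659-11399703 (minus) for Tars. The run of Slc7a11 holds a second match, left in lower case.
Atf3: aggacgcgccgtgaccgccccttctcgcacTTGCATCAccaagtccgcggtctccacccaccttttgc
Chac1: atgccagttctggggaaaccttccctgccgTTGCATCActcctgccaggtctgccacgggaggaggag
Asns: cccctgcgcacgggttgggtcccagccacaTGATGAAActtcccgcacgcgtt
Slc7a11: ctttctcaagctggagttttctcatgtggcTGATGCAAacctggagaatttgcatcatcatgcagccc
Aars: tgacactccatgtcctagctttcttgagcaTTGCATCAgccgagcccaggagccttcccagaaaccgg
Gars: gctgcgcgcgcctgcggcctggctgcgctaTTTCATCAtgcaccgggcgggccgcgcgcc
Tars: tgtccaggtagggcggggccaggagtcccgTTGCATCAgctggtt

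Genes that supply and charge amino acids rose broadly. Asns, the asparagine synthetase, read 509.8, 497 and 376 CPM with Tg and 1135, 1129 and 1165 CPM with BtdCPU + Tg (log2 fold change 1.31, SE 0.10, edgeR adjusted p 5.33e-11). Psat1, an enzyme of serine synthesis, read 718, 741 and 616 and then 939, 993 and 917 CPM, a smaller rise of 0.46, SE 0.11, edgeR adjusted p 0.00163 with no overlap. Of 11 tested serine and one-carbon enzymes, 10 rose and none fell (median 0.77), led by mitochondrial Aldh1l2 (1.77) and Mthfd2 (1.60). Aldh1l2 went from 73.7, 85.5 and 72.5 to 252, 227 and 311 CPM. Of 15 genes of asparagine, proline and transamination, 6 rose and 3 fell, with a median of 0.10, and 1 to 2 fell when any 1 library was left out. The transaminases Gpt2 (1.78) and Got1 (1.68) and the proline enzyme Aldh18a1 (1.05) rose, while Gpt fell by 0.74.

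Among 18 amino acid transporters 9 rose and 2 fell. Slc7a11, which brings in cystine, read 7.29, 7.72 and 4.51 CPM with Tg and 25.8, 28.5 and 33.6 CPM with BtdCPU + Tg (2.17, SE 0.25, edgeR adjusted p 4.88e-08). The cationic carrier Slc7a1 (1.95) and the leucine carrier Slc7a5 (1.73) rose as well, and Slc38a4 fell by 0.79. Of 20 cytosolic tRNA synthetases, 19 rose, by 0.31 (Hars, Kars) to 1.23 (Sars), with a median of 0.81. Qars fell by 0.21, and this call was lost in every fit that left out a library. Without replicate 3 of both groups 16 of the 20 rose. The mitochondrial synthetases did not follow as a group, with 5 of 17 higher, 2 lower and a median of 0.10. Nars2 was the largest rise there (1.38) and Cars2 the largest fall (-0.34). Neither fall passed when any 1 library was left out, and 3 rose and none fell without replicate 3 of both groups. Aars, Hars, Mars and Wars overlap other genes, as do Psph and Slc6a9 of the lists above, so their counts are uncertain. Chac1, which breaks down glutathione, read 27.7, 28.2 and 22.5 and then 131, 133 and 124 CPM (2.31, SE 0.21, edgeR adjusted p 3.98e-10). Cth, which makes cysteine, rose by 2.21, and Mpst of the same list of 12 fell by 0.43, within counts of 4 higher and 3 lower. The lower count was 0 to 2 when 1 library was left out, and 3 rose and 1 fell without replicate 3 of both groups.

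Signals and brakes known to follow the ISR moved in both directions, and some of the rises began from low levels. Fgf21, a hormone of stressed mitochondria, read 0.352, 0.491 and 0.561 CPM with Tg and 7.95, 6.64 and 9.08 CPM with BtdCPU + Tg (4.06, SE 0.50, edgeR adjusted p 1.28e-07). Gdf15, another such hormone, read 0.0813, 0.164 and 0.107 and then 2.14, 1.03 and 1.19 CPM (3.60), a handful of counts per Tg library. Vegfa (1.75), Sesn2 (1.64), Stc2 (1.61) and Adm2 (2.90) rose too. In all 8 of 14 genes of this list rose and 5 fell. Ddit4l was the lowest of the falls: its libraries with BtdCPU + Tg held 3 counts or fewer, and the mean of the Tg libraries was at least 4.24-fold higher than that floor of 3 counts per library. Sesn1 (-1.12) and Sesn3 (-1.13), relatives of Sesn2, fell.

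The ER chaperones, which Tg also raises through ATF6 and IRE1, did not rise as a group. Hspa5, the chaperone BiP, read 6364, 5909.8 and 6202 CPM with Tg and 9609, 10686 and 11977 CPM with BtdCPU + Tg (0.80, SE 0.14, edgeR adjusted p 3.76e-05), and all 3 libraries with BtdCPU were higher. Its locus overlaps Rabepk. It was the 1 rise among 17 ER chaperones, of which 4 fell (2 without replicate 1 or replicate 2 of BtdCPU + Tg), Fkbp2 furthest (-0.48), with a list median of -0.15. Dnajb9, a reporter of XBP1, read 33.3, 30.3 and 35.8 and then 38.0, 31.9 and 42.2 CPM, overlapping ranges (0.17, SE 0.15, edgeR adjusted p 0.402). Of 26 XBP1 and ER degradation genes, 4 rose and 8 fell (median -0.24). The rises were Atf6 (1.47), Ero1l (1.34), Herpud1 (1.08) and Ern1 (0.59), and the largest fall was that of Hspa13 (-0.82). Herpud1 and Ero1l are also known as targets of ATF4 or CHOP.

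Transcripts listed as mitochondrial ribosomal RNA by symbol rose while the messengers of mitochondrial DNA fell. Rnr1 and Rnr2 are taken as the 12S and 16S RNAs of mitochondrial DNA by their symbols alone, since the table gives no coordinates. Rnr2 read 1005, 963 and 794 CPM with Tg and 8100.0, 8911 and 10405 CPM with BtdCPU + Tg (3.31, SE 0.30, edgeR adjusted p 6.05e-10). Rnr1 read 392, 454 and 314 and then 2650.3, 3178 and 2874 CPM (2.91, SE 0.24, edgeR adjusted p 1.05e-10). Together they took 0.144%, 0.147% and 0.114% of the counts of the Tg libraries and 1.11%, 1.23% and 1.34% with BtdCPU + Tg. The share was 0.619%, 0.437% and 0.542% under BtdCPU without Tg, 0.0905% to 0.109% under halofuginone with Tg, and 0.261%, 0.282% and 0.794% in WT cells with BtdCPU + Tg, where the third library stood apart. The labels name both ribosomal depletion and mRNA selection, and the part of library preparation in these shares was not tested. Nuclear ribosomal RNA was not analysed here.

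Of the 13 messengers of mitochondrial DNA, 12 fell, with a median log2 fold change of -0.94. Cytb, listed as CYTB and coding for a subunit of complex III, read 4933, 4854 and 3624 CPM with Tg and 1661, 1755 and 1269.9 CPM with BtdCPU + Tg (-1.52, SE 0.26, edgeR adjusted p 3.02e-05), and every library with BtdCPU lay below every Tg library. ND4 (-1.30) and ND2 (-1.24) followed, and COX1 changed least among those called, from 16066, 15847 and 12648 to 9637, 11641 and 8961 CPM (-0.56, SE 0.21, edgeR adjusted p 0.0399). ND3, at -0.70, did not pass. The 13 messengers together made up 4.26%, 4.40% and 3.38% of the counts with Tg and 2.19%, 2.55% and 1.91% with BtdCPU + Tg. The third library was lowest in each group, and without replicate 3 of both groups 8 messengers fell with a median of -0.96. ND4 and ND4L, ND5 and ND6, and ATP6, ATP8 and COX3 overlap, so their counts are uncertain.

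**Figure D3:**
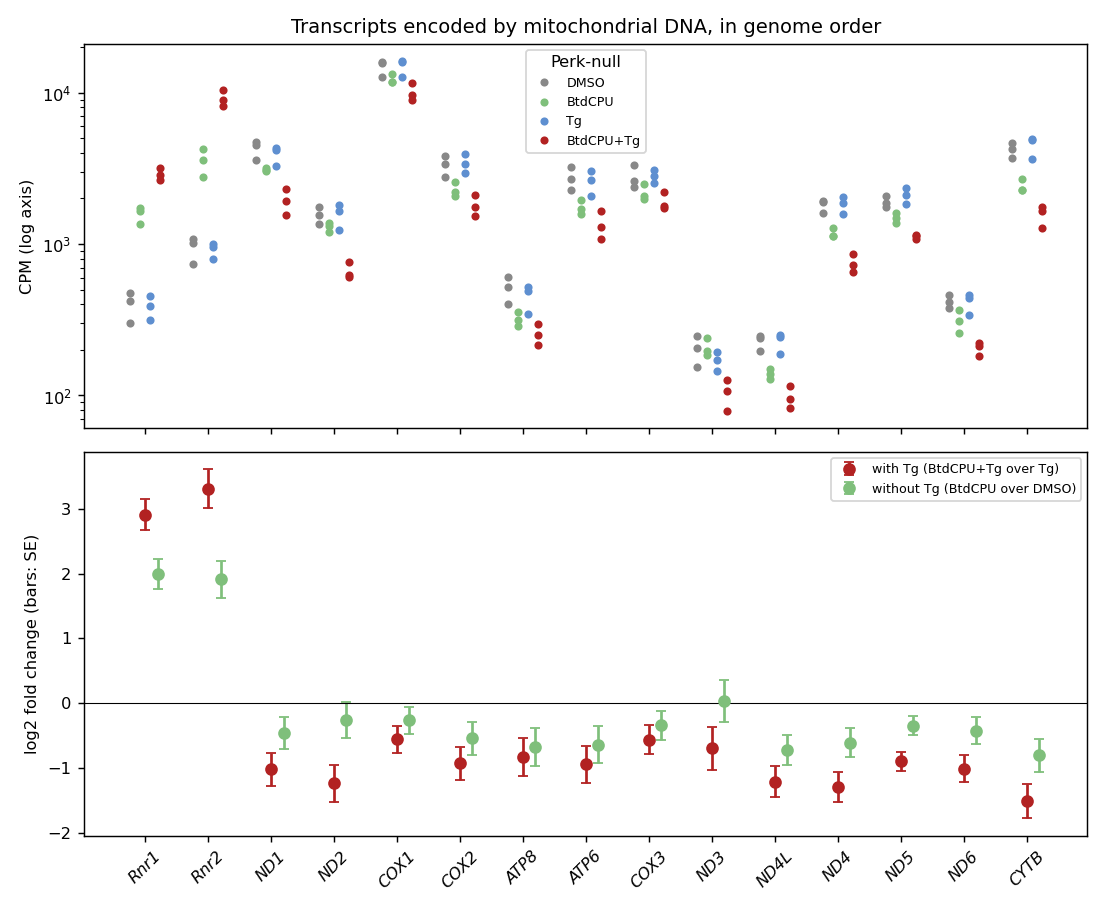
Upper panel: CPM of the ribosomal RNAs and messengers of mitochondrial DNA in each of 3 libraries of 4 Perk-null groups, on a log axis. Lower panel: log2 fold change with its SE for BtdCPU + Tg over Tg and for BtdCPU over DMSO, with Rnr1 and Rnr2 above 0 in both. Of the 13 messengers, 12 were called lower with Tg and 0 without, and 0 had a called difference between the responses.

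With no library left out, nuclear genes for mitochondria split by role. Of 21 mitochondrial chaperones and proteases, 13 rose and none fell: Dnaja3 (1.25), Grpel2 (1.15), the protease Lonp1 (1.00) and the chaperone Hspa9 (0.82) led. Lonp1 went from 299.6, 317 and 319 to 579, 596 and 698 CPM. Of 18 import genes, 9 rose and 2 fell, with Timm10 at 1.31, Chchd4 at 1.17 and Timm22 at -0.37. The lower count was 0 to 2 when 1 library was left out, and 7 rose and none fell without replicate 3 of both groups. Tg over DMSO in Perk-null cells called 12 of the 18 import genes lower and 0 higher, against 2038 lower of all 16065 genes. BtdCPU + Tg over DMSO called 0 of them higher and 3 lower, against 2701 and 2341 of all genes. Of 19 genes that transcribe and keep mitochondrial DNA, 8 rose and none fell, among them the coactivators Ppargc1b (2.08) and Ppargc1a (1.36), whereas Polrmt (0.10), the polymerase, and Tfam (0.17) did not pass. Without replicate 3 of both groups 8 of the chaperones and proteases and 5 of the upkeep genes rose.

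Subunits of the respiratory chain encoded in the nucleus leaned slightly lower with no library left out. In complex I 10 of 37 fell and none rose, Ndufc1 and Ndufa5 furthest (both -0.58). In complexes II to V 14 of 39 fell and none rose, led by Uqcrh (-1.30, SE 0.23, edgeR adjusted p 3.84e-05). The median was -0.19 in both lists. Without replicate 3 of both groups, where 11.0% of all genes were lower, 2 genes of complex I and 6 of complexes II to V fell. For complex I that is a smaller share than of all genes. With 1 library left out, where 12.3% to 15.1% of all genes were lower, 2 to 8 and 6 to 11 fell. Of 21 genes of fusion, fission and mitophagy, 4 rose and 7 fell, 4 to 5 of them when 1 library was left out, and 2 rose and 4 fell without replicate 3 of both groups. The mitophagy receptor Bnip3 read 24.7, 29.6 and 27.7 CPM and then 7.81, 5.66 and 8.05 CPM (-1.93, SE 0.18, edgeR adjusted p 7.07e-10), and the kinase Pink1 fell by 0.90. Mtfr1 was the largest rise (0.55).

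Sterol synthesis fell nearly as a whole. Of 24 genes, 23 fell and none rose, and the same count, 23, was found without replicate 3 of both groups, where the median moved from -1.16 to -0.98. Hmgcs1, which makes the precursor of mevalonate, read 456, 392 and 509 CPM with Tg and 99.99, 125 and 102 CPM with BtdCPU + Tg (-2.05, SE 0.19, edgeR adjusted p 7.53e-10). Every library with BtdCPU lay far below every Tg library. Dhcr7 (-1.73) and Nsdhl (-1.38), enzymes of late steps, and the regulator Srebf2 (-0.53) fell as well. Of 13 fatty acid synthesis genes 8 fell, Elovl6 (-1.42) and the desaturase Scd2 (-1.27) furthest, and none rose, while Fasn (-0.15) and Acaca (0.08) did not pass. Many of these genes are known targets of SREBP factors, which bind a sterol element. Its letters TCACNCCAC, searched on both strands as above, lay in 1.24% of all promoters, or for 1.44% of all genes, and in those of 1 of the 16 sterol genes with a promoter in the table. That gene is Hmgcs1, whose window at chr13:119690184-119690252 (plus strand, GRCm38.p6) is shown with the match in capitals.
Hmgcs1: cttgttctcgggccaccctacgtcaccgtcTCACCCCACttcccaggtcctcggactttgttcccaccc

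Genes of ribosome assembly rose, in contrast to the ribosomal proteins. Of 28 assembly genes, 23 rose and 1 fell (Nop10, -0.60), with a median of 0.78, and 18 rose and none fell without replicate 3 of both groups. Rrs1 went from 23.0, 25.1 and 23.3 to 63.9, 66.8 and 70.3 CPM (1.49, SE 0.12, edgeR adjusted p 3.09e-11), and stood at 71.3, 80.3 and 79.3 CPM under DMSO. Nop56, a core protein of small nucleolar particles, went from 290.4, 316 and 252 to 678, 695 and 681 CPM and stood at 617, 601 and 597 CPM under DMSO. For both genes the Tg libraries were the low ones of the 3 groups. Over the whole list, Tg over DMSO in Perk-null cells called 24 of 28 lower and 0 higher, with a median of -1.01. Of all 16065 genes that comparison called 2038 lower. BtdCPU + Tg over DMSO called 1 of the 28 higher and 2 lower, with a median of -0.10, so the rise over Tg left most assembly genes without a called difference from DMSO. Myc, whose product drives many of these genes, read 51.3, 52.4 and 49.6 CPM with Tg, 243, 229 and 256 CPM with BtdCPU + Tg (2.25, SE 0.19, edgeR adjusted p 2.46e-10) and 119, 120.0 and 134 CPM under DMSO. Of 48 ribosomal protein genes, 2 rose (Rpl14 at 0.44 and Rpl3 at 0.29), none fell, and the median was 0.04.

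**Figure D4:**
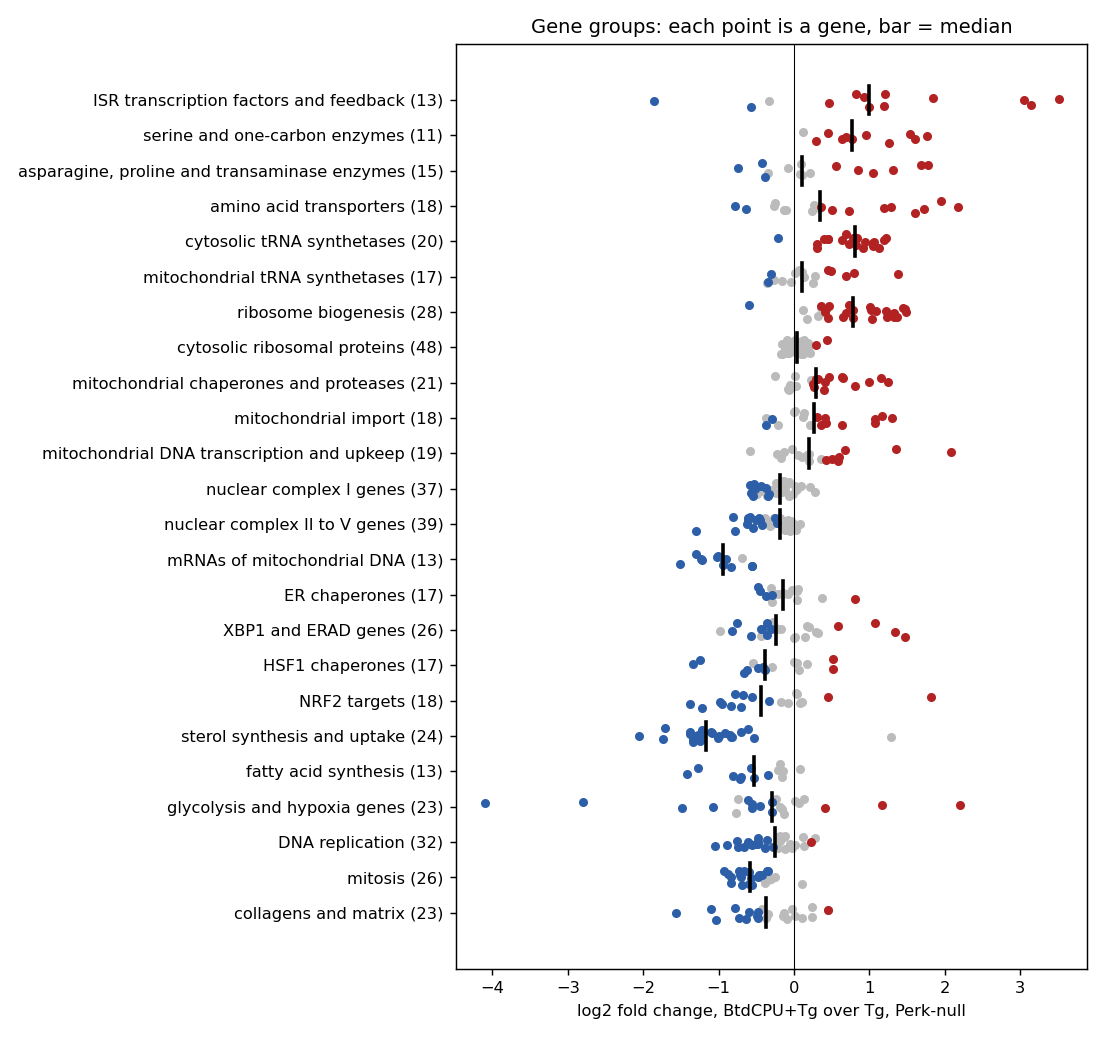
Log2 fold change of each tested member of 24 gene groups with BtdCPU + Tg over Tg in Perk-null cells (horizontal axis; group sizes in brackets). Red and blue points passed the threshold as higher or lower, grey points did not, and the bar is the group median, which runs from -1.16 for sterol synthesis to 0.99 for the ISR transcription genes.

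The largest falls were of genes whose Tg libraries all stood above the DMSO libraries, with the exception of Dnm3os. A ranking by fall from the Tg level favours genes that are high under Tg. Cyp1b1, a monooxygenase, read 23.5, 19.6 and 22.7 CPM with Tg, 1.69, 2.21 and 1.22 CPM with BtdCPU + Tg (-3.69, SE 0.22, edgeR adjusted p 9.15e-14) and 7.29, 8.32 and 8.63 CPM under DMSO. Txnip, which binds thioredoxin and curbs glucose uptake, read 75.1, 53.1 and 71.8, then 9.53, 9.39 and 9.92 (-2.79, SE 0.35, edgeR adjusted p 1.89e-07), against 20.6, 19.0 and 23.2 CPM under DMSO. It overlaps Gm15441 (-2.86), and whether the counting used strand is not given in the sources used here. The imprinted gene Mest, which overlaps Copg2, read 57.6, 54.8 and 60.7, then 8.32, 12.5 and 8.27 CPM (-2.57, SE 0.18, edgeR adjusted p 6.3e-12), against 11.3, 12.4 and 10.7 CPM under DMSO. For these genes every library with BtdCPU lay below every Tg library. The DMSO libraries lay between for Cyp1b1 and Txnip and within the range of the BtdCPU + Tg libraries for Mest. Ankrd37 (-3.34), the potassium channel Kcnj2 (-3.17), Mrgprf (-2.58), Lrrc15 (-2.52), Tmem119 (-2.50), the ligand Bmp4 (-2.32), Mxd3 (-2.30) and the RNA Dnm3os (-2.23) completed the 12. Ankrd37, Mxd3 and Dnm3os overlap other genes. Bmp4 read 24.9, 31.9 and 47.3 and then 5.03, 7.51 and 8.30 CPM.

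Genes of glucose use and of cell death moved in both directions. Slc16a3, a lactate carrier, read 4.96, 6.03 and 4.97 CPM and then 0.321, 0.327 and 0.270 CPM (-4.10, SE 0.54, edgeR adjusted p 4.03e-07), and Pdk1, which restrains pyruvate dehydrogenase, fell by 1.48. The hexokinase Hk2 read 19.9, 20.9 and 26.1 and then 99.9, 86.4 and 120.2 CPM (2.20, SE 0.24, edgeR adjusted p 1.43e-08). Of 23 glycolysis and hypoxia genes, 3 rose and 10 fell. Among 15 cell death regulators 4 rose and 7 fell. Bmf, which sets off apoptosis by binding BCL2, read 6.86, 6.76 and 8.86 and then 0.482, 0.463 and 0.486 CPM (-3.96, SE 0.55, edgeR adjusted p 9.47e-07), and Bcl2l11, the gene of BIM, fell by 1.52. Bik had 3 counts or fewer with BtdCPU + Tg, and the mean of the Tg libraries was at least 3.77-fold higher than the floor. Bcl2 itself read 0.108, 0.164 and 0.0267 and then 0.241, 0.517 and 0.676 CPM and passed as higher, at a very low level in all 6.

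Most mitosis genes and a smaller share of matrix genes fell. Of 26 mitosis genes, 20 fell and none rose (median -0.58), Nusap1 furthest (-0.93, SE 0.18, edgeR adjusted p 0.000188). Of 32 replication genes, 15 fell, Ccne2 furthest (-1.05), and 1 rose (Mcm2, 0.23), but 7 fell and none rose without replicate 3 of both groups. Of 23 collagen and matrix genes, 10 fell and 1 rose, and of 12 fibroblast markers, some in both lists, 6 fell and 1 rose (Pdgfra at -1.45 and Vim at 0.24), or 4 and none without replicate 3 of both groups. Thbs1 read 322, 432 and 609 and then 153, 162 and 146 CPM (-1.57, SE 0.31, edgeR adjusted p 0.000198), Col3a1 fell by 1.10, and Col8a1 rose by 0.45. Of 18 genes listed for NRF2, targets along with Keap1 and Nfe2l2, 10 fell, led by Nqo1 (-1.37). Hmox1 (1.82) and Abcc1 (0.45) were the 2 that rose, of which 1 passed without replicate 3 of both groups. Of 17 genes of the heat shock factor HSF1 and its chaperones, 8 fell and 2 rose. Hspa1b (-1.34) and Hspa1a (-1.25), near-identical copies whose counts are uncertain, fell furthest, and Hsf1 and Hspa4 (both 0.52) rose.

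The response to BtdCPU was then set against its response without Tg, BtdCPU over DMSO in Perk-null cells, a comparison with which it shares no library. Without Tg 410 genes were higher (2.55%) and 167 lower (1.04%). Of those, 370 (90.2%) were also higher with Tg and 148 (88.6%) also lower, which is 13.3% of the higher and 5.03% of the lower genes found with Tg, and 0 genes were called in opposite directions. Across 10072 genes with at least 5 CPM the log2 fold changes of both comparisons had a Pearson correlation of 0.73 and a Spearman correlation of 0.68. Over all 16065 tested genes these were 0.33 and 0.48. Both are a description across genes, which are not independent replicates. The difference of the responses was called for 1187 genes (7.39%), 644 higher (4.01%) and 543 lower (3.38%) with Tg present. Leaving out 1 library moved the lower count to 231 to 423 and the higher count to 470 to 740. The lower count fell by over 1.5 times without any of the BtdCPU + Tg libraries, replicate 3 of Tg (231), replicates 2 or 3 of BtdCPU or replicate 2 of DMSO.

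Some groups answered BtdCPU with or without Tg, others differed. Without Tg 21 of 24 sterol genes fell, 10 of 13 ISR transcription genes rose, and no sterol gene had a called difference between the responses. Of the 13 messengers of mitochondrial DNA 0 passed without Tg, with a median of -0.46, and 0 had a called difference. Of 28 ribosome assembly genes 0 passed without Tg, and for 16 the response with Tg was called higher. Myc read 119, 120.0 and 134 CPM under DMSO and 219.6, 221 and 210.2 CPM under BtdCPU, and its responses differed by 1.45 (edgeR adjusted p 0.000721). Atf3 read 2.19, 2.92 and 2.69 CPM under DMSO and 15.0, 10.2 and 11.6 CPM under BtdCPU, and its response with Tg was larger by 1.27, SE 0.30, edgeR adjusted p 0.00759. This call was lost when the third library of every group was left out (edgeR adjusted p 0.147). Hspa5 read 1494, 1670.1 and 1539.6 CPM and 1600.3, 1561 and 1721 CPM without Tg, overlapping ranges, and the difference was 0.75, SE 0.20, edgeR adjusted p 0.0165. Ppp1r15a, looked up after the values were seen, had one of 1.39 (edgeR adjusted p 0.00345). Ddit3 (0.80, adjusted p 0.0905 by edgeR) and Trib3 (-0.32, adjusted p 0.695) did not differ past the threshold. A missed threshold does not show equal responses, and Ddit3 passed in 5 of 20 alternative fits.

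The largest positive differences were in genes whose lowest level among the Perk-null groups below was under Tg. This ranking favours such genes, because the contrast subtracts the Tg level. Snhg12, a host of small nucleolar RNAs that overlaps them, read 11.0, 13.2 and 9.53 CPM with Tg, 60.9, 61.2 and 63.7 with BtdCPU + Tg, 15.3, 19.6 and 18.3 under DMSO and 30.7, 27.5 and 23.7 under BtdCPU (difference 1.84, SE 0.31, edgeR adjusted p 0.000279). Prkg2, a cGMP-dependent kinase (1.71), Eps8, an actin regulator (1.65), and Arid5a, which binds RNA (1.57), followed. Eps8 read 111, 127 and 107 CPM with Tg and 416, 438 and 494 with BtdCPU + Tg. Without Tg it read 273, 293 and 317 CPM under DMSO and 371, 371 and 361 under BtdCPU. The most negative were Ankrd37 (-2.31), Mest (-2.31), Tmem44 (-2.27) and Tmem119 (-2.05).

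**Figure D5:**
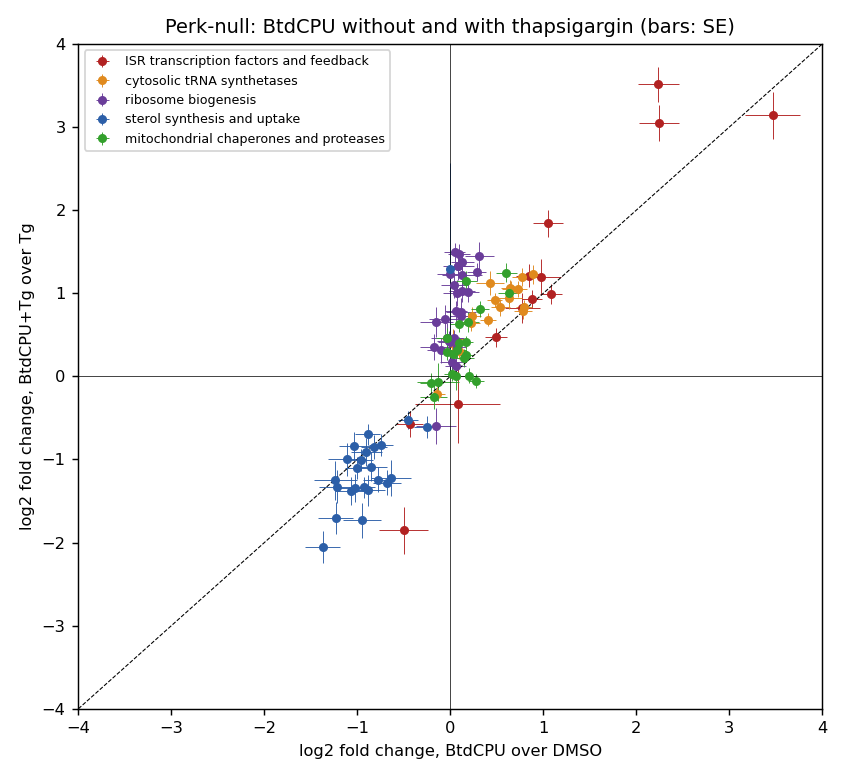
Log2 fold change with its SE of each member of 5 gene groups for BtdCPU + Tg over Tg (vertical axis) against BtdCPU over DMSO (horizontal axis), Perk-null cells. Points on the dashed line have equal values, 23 of 24 sterol genes lie below 0 on both axes, and 27 of 28 ribosome assembly genes lie above 0 on the vertical axis.

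Added to Tg in WT cells, BtdCPU changed 372 of the 16065 genes, 208 higher and 164 lower, against 5723 in Perk-null cells. The response differed between the genotypes for 3343 genes (20.8%), 1726 with a higher value in Perk-null cells (10.7%) and 1617 with a lower one (10.1%). Scaled by library size alone, the counts were 1402 and 1981, a share of 41.4% higher in place of 51.6%, and the median of all genes moved from -0.05 to -0.13. Ddit3 read 381, 344 and 309 CPM in WT cells under Tg and 264, 285 and 181 CPM with BtdCPU + Tg. This change in WT cells did not pass (-0.51, SE 0.20, edgeR adjusted p 0.183). The responses of the genotypes differed by 3.55, SE 0.29, edgeR adjusted p 4.83e-10. Atf4 (1.10), Atf3 (3.41), Trib3 (3.21), Chac1 (2.29), Asns (1.43), Psat1 (0.71) and Hspa5 (1.20) differed in the same direction. The response was called higher in Perk-null cells for 19 of 20 cytosolic synthetases, 10 of 13 ISR transcription genes and 21 of 28 ribosome assembly genes, and lower for 12 of 24 sterol genes. Rnr2 in WT cells read 505, 493 and 427 CPM under Tg and 2106, 2217 and 6720.4 CPM with BtdCPU + Tg, and its responses differed by 0.36 (edgeR adjusted p 0.578).

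Car6, Cdsn, Kif21b and Angptl6 had the largest positive differences between genotypes (5.29, 4.57, 4.23 and 3.89). Kif21b was high in WT cells under Tg either way, at 141, 158 and 196 CPM without and 153, 148 and 147 CPM with BtdCPU. The most negative was that of Cyp1b1 (-3.70) among genes well read in both genotypes. Mest (-2.95), Hoxc9 (-3.05) and Fndc3c1 (-3.78) had at most 0.211 CPM in any of the 6 WT libraries, so these fitted differences depend on the prior count and are no measure of size. The call was lost for Fndc3c1 in 4 of 19 alternative fits and for Hoxc9 in 6, among them those without replicate 3 of WT BtdCPU + Tg, replicate 1 of WT Tg or replicate 3 of WT Tg (edgeR adjusted p up to 0.223 and 0.248 over all 19). Fndc3c1 did not pass in Perk-null cells (-0.49).

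The genes that BtdCPU moved in Perk-null cells under Tg were last set beside the response of WT cells to Tg over DMSO, which shares no library with it. In WT cells 3998 genes were higher under Tg (24.9%) and 3648 lower (22.7%). Of the 2783 genes that rose here, 1544 (55.5%, or 38.6% of the WT list) were higher there and 189 lower. Of the 2940 that fell, 1470 (50.0%, or 40.3% of the WT list) were lower there and 310 higher. Across 10072 genes with at least 5 CPM the Pearson and Spearman correlations were both 0.52, and over all 16065 genes they were 0.24 and 0.34. The levels of named genes differed in how near they came: with BtdCPU + Tg in Perk-null cells Ddit3 read 374, 413 and 399.8 CPM against 381, 344 and 309 in WT cells under Tg, overlapping ranges, whereas Atf3 read 48.8, 49.3 and 55.3 against 87.5, 84.5 and 77.5, Hspa5 9609, 10686 and 11977 against 22340.5, 19329.8 and 18473 and Dnajb9 38.0, 31.9 and 42.2 against 152, 144 and 165, all lower. The genotypes were not tested against each other at these levels.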

How the data were processed

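Gene expression was measured by RNA sequencing in 36 libraries. Per the labels' protocols, RNA came from a Quick-RNA (Zymo) extraction and was depleted of ribosomal RNA and selected for mRNA, then sequenced strand-specifically on DNBSEQ. The authors deposited 1 table of values per gene that are estimated counts, not normalized as far as the values show, in which 0.025 stands for 0 (50.6% of values). The submitters' processing notes name GRCm39 and DESeq. The aligner, counter, annotation and strand setting are not given in the sources used here. Of 36930 entries, 27 named by numbers (0.206% to 0.278% of counts) were dropped, 39 symbols on 86 entries were summed, and values were rounded to whole counts. Libraries held 32454261 to 37178124 counts.

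Genes passing edgeR's filterByExpr (16065) were fitted with TMM scaling and the quasi-likelihood test (edgeR 4.0.16, limma 3.58.1, R 4.3.3) on 12 group means over all 36 libraries (24 residual degrees of freedom). Interaction contrasts gave the differences between responses. The Benjamini-Hochberg adjustment ran over all tested genes, with a threshold of 0.05. CPM are on TMM-scaled library sizes, fold changes are log2, and a floor of 3 counts per library covers counting error only. The SE of a log2 fold change is its absolute value divided by the square root of the quasi-likelihood F statistic. Named genes were the 12 largest called rises and falls and the 4 largest differences in each direction with at least 5 CPM on average and all replicates on one side, and a fixed set of stress genes. Genes with 3 counts or fewer in a library of the lower group were not eligible for the largest rises and falls. Others were taken from gene lists. Of those, Atf5, Nusap1, Nop56, Gnl3, Slc16a3, Ccne2, Rpl3, Egr2 and Plk3 also overlap other genes, so that their counts are uncertain. The members and lists were chosen with earlier results of these data known. Promoters came from RefSeq on GRCm38.p6, where 14250 symbols of tested genes matched directly and 736 through older names. The model was tested on simulated counts. Alternatives were DESeq2 (1.42.0), library-size scaling, other filters, fewer libraries in the fit, a replicate block and leaving out libraries. The fits without replicate 3 of both or all groups were added after seeing the data.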

Additional observations from a re-analysis of the deposited data

Results flagged for a closer look

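These results stand out because the response to BtdCPU differed between settings by the interaction contrast of the edgeR fit. With Tg against without Tg in Perk-null cells, 1187 genes differed. On the log2 scale, the response was higher with Tg for Snhg12 (1.84), Prkg2 (1.71), Eps8 (1.65), Arid5a (1.57), Atf3 (1.27) and Hspa5 (0.75). It was lower with Tg for Ankrd37 (-2.31), Mest (-2.31), Tmem44 (-2.27) and Tmem119 (-2.05).

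Between Perk-null and WT cells under Tg, 3343 genes differed in their response to BtdCPU. In WT cells alone, BtdCPU + Tg over Tg called 372 genes. Among ISR and ER genes the response was higher in Perk-null cells for Ddit3 (3.55), Atf3 (3.41), Trib3 (3.21), Chac1 (2.29), Asns (1.43), Hspa5 (1.20), Atf4 (1.10) and Psat1 (0.71). It was also higher for Car6 (5.29), Cdsn (4.57), Kif21b (4.23) and Angptl6 (3.89), all of which were called higher with Tg over DMSO in WT cells. It was lower for Fndc3c1 (-3.78), Cyp1b1 (-3.70), Hoxc9 (-3.05) and Mest (-2.95), and for all of these but Cyp1b1 the WT libraries were near 0. The calls for Fndc3c1 and Hoxc9 were lost in 4 and 6 of 19 alternative fits. The test for 1 outlying library was not applied to groups of 3.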

How the results depend on the processing

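Of the count of changed genes with BtdCPU + Tg over Tg (5723), 4637 to 4973 remained as a count when 1 library was left out, and 3722 without replicate 3 of both groups, 3665 of them also called with all 6. The difference of the response with and without Tg was called for 760 to 1135 genes when 1 library was left out, lowest without the third Tg library (760), and for 706 without the third library of every group. It was called for 2515 genes with the Perk-null libraries alone in the fit, 2840 with the compared groups alone and 2757 with the replicate block. The difference from WT cells was called for 2714 to 3191 genes with 1 library left out. DESeq2 called 5969 genes in the comparison itself. With the replicate block, 7304 and 4989 genes were called for the comparison and for the difference from WT. Same-numbered libraries of the compared groups correlated at 0.061, 0.043 and 0.13, each highest with its own number. In WT cells the BtdCPU + Tg and Tg libraries correlated at 0.159, 0.312 and 0.337, also each highest with its own number. Between BtdCPU and DMSO in Perk-null cells, replicates 2 and 3 were highest with their own number. Replicate 1 there correlated at 0.051 with its own number and at up to 0.104 with another. Shared numbers alone do not show pairing, so the main fit holds no block, and these values do not settle whether the libraries are paired. No named gene changed direction in the comparison itself. Of its 583 alternative values, 1 lost the call (Hoxc9, edgeR adjusted p 0.0593 without replicate 3 of both groups) and 8 gained it (Eif2ak3 and Fndc3c1, 4 each). The cause of these shifts was not tested. Depth limits genes of a few counts per library, such as Gdf15, Bcl2, Bik and Ddit4l.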

Other observations

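Growth factor and stress-kinase feedback genes moved in both directions. Of 25 immediate early and ERK feedback genes, 8 rose and 7 fell with BtdCPU + Tg over Tg (edgeR quasi-likelihood test). Dusp4, a phosphatase of ERK, read 1.06, 1.04 and 0.908 CPM with Tg and 9.66, 7.68 and 8.08 CPM with BtdCPU + Tg (3.08, SE 0.27, edgeR adjusted p 2.46e-10). Etv5, a transcription factor downstream of ERK, rose by 2.12, while Egr2 (-1.89, with overlapping groups), Egr3 (-1.79) and Fosb (-1.12) fell. Without replicate 3 of both groups 7 rose and 3 fell. Of 20 genes of p53 response and growth arrest, 9 rose and 5 fell, and 3 fell without replicate 3 of both groups. Gadd45a (3.72), Plk3 (1.49) and Pmaip1 (1.43) were higher and Trp53inp1 (-1.26) lower. Of 17 TGF-beta and contractile genes, 5 rose, led by Ctgf (1.40), and 6 fell, led by the ligand Tgfb3 (-1.64).

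Inflammatory genes moved little as groups. Of 21 chemokine and cytokine genes, 2 rose and 2 fell, and Ptgs2, which makes prostaglandins, read 109, 99.2 and 98.6 CPM and then 362, 293 and 354 CPM (1.72, SE 0.24, edgeR adjusted p 9.2e-07). Cxcl1 was the largest fall (-1.05), and 1 fell in each fit that left out 1 library. Of 20 interferon-stimulated genes none rose and 5 fell, Gbp2 furthest (-1.22), and 2 fell in each fit that left out 1 library and without replicate 3 of both groups. Of 23 autophagy and lysosome genes, 6 rose and 8 fell, or 5 and 5 without replicate 3 of both groups. Sqstm1, the autophagy receptor p62, read 685, 715 and 663 CPM and then 1602, 1602 and 1826 CPM (1.29, SE 0.13, edgeR adjusted p 6.95e-09), and the kinase Ulk1 fell by 0.74. Of 14 histone genes, 5 fell and none rose, Hist2h2be furthest (-2.41). Mature histone messengers mostly lack a poly(A) tail, and the part of library preparation in their counts was not tested.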
